A study of Mus musculus with 28 samples.

Results

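Single cells from the subventricular zone (SVZ) of C57BL/6 mice were sequenced, and the Gfap+ and Prom1+ cells of 24 months are compared here. These are 8 of the 28 samples of the series, 5 Gfap+ and 3 Prom1+ cells, chosen by the subpopulation and age that their labels carry. The tissue was digested with papain, single cells were sorted by flow cytometry, and their cDNA was amplified and sequenced with Smart-seq2, a full-length method without molecular identifiers. Set beside them are the 2 Gfap+ and 3 Prom1+ cells of 1 month, and the cells labelled Dlx2+/Dcx+, 4 of 24 months and 5 of 1 month, which makes 22 cells in all. Cells were taken at random from a fraction sorted by size and complexity, not by an antibody. Quantitative PCR of *Prom1*, *Gfap*, *Dlx2* and *Dcx* on their cDNA picked those to sequence. Per the study's methods, the subpopulations came from clustering the transcriptomes of all 22 cells, both ages together, and were named by signature genes. No gene's level is therefore independent of the grouping, and every difference between subpopulations given here is a description of the clusters. No treatment or transgene is named for these mice, and no label says which animal a cell came from. Each subpopulation therefore counted as 1 sample, no p-value is given, and differences are set against the range of the cells.

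The SVZ lines the lateral ventricles and keeps neural stem cells into adult life. Activated stem cells there carry the membrane protein CD133, encoded by *Prom1*, together with the epidermal growth factor receptor, and their progeny divide and become neuroblasts. *Gfap* encodes a filament protein of astrocytes and of astrocyte-like stem cells, whereas oligodendrocytes, which wrap axons in myelin, are known by *Mog* and *Mbp*.

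Of the 37974 genes in the deposited table, 7579 had FPKM (fragments per kilobase of transcript, relative to the mapped fragments of the cell) above 1 in 3 or more of the 8 cells. The rule admitted 1733 genes with exactly 3 such cells and left out 2096 with 2. A gene seen in Prom1+ cells alone had to be above 1 FPKM in all 3 of them, and one seen in Gfap+ cells alone in 3 of 5, so 225 genes passed with no Gfap+ cell above 1 and 707 with no Prom1+ cell above 1. The difference of a gene is its mean log2(FPKM + 1) in Gfap+ cells minus that in Prom1+ cells. A gene was called separated when every cell of one subpopulation lay above every cell of the other and the difference was above 1 in size.

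The expression table holds no read counts, so depth was estimated roughly from the smallest values of genes with 1 transcript. By this estimate a single fragment of a 1 kb transcript was worth 0.428 to 0.828 FPKM in Gfap+ and 0.152 to 0.323 FPKM in Prom1+ cells, so that every Prom1+ cell came out deeper than every Gfap+ cell, and values of a few FPKM rest on few fragments. The part of this gap in the differences of low genes was not tested. Between 5069 and 6061 genes were above 1 FPKM in a Gfap+ cell and between 5924 and 6626 in a Prom1+ cell. The FPKM of a cell summed to 1013522 to 1712472 in Gfap+ and to 912735 to 1042951 in Prom1+ cells.

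The 4 marker genes followed the labels. *Gfap* (chromosome 11 of GRCm38, 102887336 to 102900912) had 96.1, 48.7, 75.3, 194 and 160.1 FPKM in the Gfap+ cells and was listed at 0 in all 3 Prom1+ cells. *Prom1* (chromosome 5, 43993620 to 44102032) had 20.2, 56.6 and 1.49 FPKM in the Prom1+ cells and 0.191, 0, 0, 0 and 0.452 in the Gfap+ cells. Both genes name the subpopulations, so their levels are a check of the labels and not a finding, and the third Prom1+ cell carried *Prom1* only just above the limit. *Mog* (chromosome 17, 37010743 to 37023398), a protein of the outer myelin sheath, had 2144, 792, 1312, 2159 and 1103 FPKM in the Gfap+ cells and was listed at 0 in every Prom1+ cell. *Egfr* (chromosome 11, 16752203 to 16918158) had 374, 22.3 and 93.1 FPKM in the Prom1+ cells and 0.133, 0.187, 1.58, 0 and 0.221 in the Gfap+ cells, a difference of −6.13. For neither gene did the subpopulations overlap, and both belong to the signatures by which the clusters were named.

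The oligonucleotides of the quantitative PCR are shown because they helped to pick the cells that were sequenced. All 6 matched coding sequence in the GENCODE annotation of GRCm38, counted along the transcript with the longest coding sequence that holds them. For *Prom1* the forward primer lies in exon 19 (chr5:44012908-44012931), the probe in exon 20 (chr5:44011200-44011223) and the reverse primer in exon 21 (chr5:44007066-44007085), with the gene on the minus strand. For *Gfap*, also on the minus strand, the probe lies in exon 7 (chr11:102891912-102891937), the forward primer spans exons 6 and 7 and the reverse primer spans exons 8 and 9. The *Prom1* probe was found in 10 of 19 annotated transcripts and the *Gfap* reverse primer in 1 of 3. They are written from 5′ to 3′ in lower case, with no part marked.
Prom1 forward: tacagaatataagagccatccacc
Prom1 probe: ccctccagcaaacaagcaacaagt
Prom1 reverse: acagagtccaaagaggcaag
Gfap forward: gaaaaccgcatcaccattcc
Gfap probe: agactttctccaacctccagatccga
Gfap reverse: cttaatgacctcaccatcccg

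The defining markers of other cell types were then read in both subpopulations. Of the 15 astrocyte markers, *Aqp4* and *Aldh1l1*, a water channel and a folate enzyme of mature astrocytes, were listed at 0 in all 5 Gfap+ cells and reached 67.4 and 7.90 FPKM in the third Prom1+ cell. *Slc1a2*, the main astrocytic glutamate transporter, was at most 11.5 FPKM in Gfap+ cells and had 108, 48.7 and 292 in Prom1+ cells, a difference of −5.81. *S100b*, a calcium-binding protein of astrocytes and of oligodendrocytes, had 864, 1050.4, 494, 100.2 and 2181 FPKM in Gfap+ cells and at most 0.238 in Prom1+ cells. Of the 15 markers, 6 were listed at 0 in every Gfap+ cell and 9 passed the filter. Of these 9, *Gfap* and *S100b* were separated and higher in Gfap+ cells (22.2%, against 7.28% of all genes). *Slc1a2* and *Ntsr2* were separated and higher in Prom1+ cells (22.2%, against 6.73%). *Aldoc*, an aldolase of astrocytes, was not separated, with 387, 479.8, 385, 0 and 373 FPKM in Gfap+ and 72.9, 0.795 and 52.8 in Prom1+ cells. The summed FPKM of the list was 384 to 2719 in Gfap+ and 138 to 1431 in Prom1+ cells, which overlap.
No ependymal and no endothelial or mural marker passed the filter, and 1 of 12 neuron markers and 1 of 13 microglia markers did. The summed FPKM of the 15 ependymal markers was at most 11.2 in a Gfap+ and 8.31 in a Prom1+ cell. That of the 14 endothelial and mural markers was at most 0.182 and 0.112. That of the 13 microglia markers was 0.446 to 122 in Gfap+ and 0.345 to 3.90 in Prom1+ cells, with *C1qa* listed at 0 in every cell. That of the 12 neuron markers was 2.30 to 407 in Gfap+ and 0.656 to 86.3 in Prom1+ cells. Its highest values came from *Penk* at 406 FPKM in the fifth Gfap+ cell, the noncoding *Snhg11* at 143 and 81.2 in the second and the third, and *Snap25* at 57.7 in the second Prom1+ cell. That of the 14 neuroblast markers was 13.2 to 481 in Gfap+ and 1.45 to 46.8 in Prom1+ cells, of which the tubulin gene *Tubb3* made up 473 in the first Gfap+ cell, while *Dcx* was at most 0.516 in all 8 cells. No neuron, neuroblast or microglia marker was separated, and the part of such RNA in the differences described here was not tested.

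Over all passing genes, 552 of 7579 (7.28%) were separated and higher in Gfap+ cells and 510 (6.73%) were separated and higher in Prom1+ cells. With each cell scaled to the same total after the mitochondrial genes were taken out, which shifted the median difference of all genes from −0.04 to −0.43, the split was 450 against 644. Pairs of cells correlated with r from 0.415 to 0.449 within the Gfap+ and from 0.455 to 0.504 within the Prom1+ subpopulation, and from 0.184 to 0.224 between them. These are correlations of log2(FPKM + 1) across the 7579 genes, which are not independent replicates. The difference was at least 100-fold on this scale for 136 of the 552 and for 30 of the 510. Of the 552, 93 were listed at 0 in every Prom1+ cell, and of the 510, 75 were listed at 0 in every Gfap+ cell.
A value of 0 in this table cannot be read as absence. *Actb*, the beta-actin gene that nearly every cell uses, had 24072, 14847, 16526, 13565 and 12945 FPKM in the Gfap+ cells and was listed at 0 in all 3 Prom1+ cells. *Actg1*, the gamma-actin gene, had 209, 289.7 and 204 FPKM in the same Prom1+ cells and 60.1, 39.7, 412, 97.7 and 21.5 in the Gfap+ cells. Both actin genes have near-identical copies in the genome, so how their fragments were shared out is uncertain. The zeros of *Actb* followed the Prom1+ label, since it was also 0 in the Prom1+ cells of 1 month and 10899.8 FPKM or more in the Dlx2+/Dcx+ cells of 24 months. Their cause was not tested. An effect tied to the Prom1+ libraries or their processing cannot be told apart from a difference between the subpopulations.

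Genes of the myelin sheath were among the most strongly separated genes of the Gfap+ cells. The mean log2(FPKM + 1) over all 23 listed myelin genes, whether or not they passed the filter, was 8.61, 8.54, 8.18, 9.86 and 8.58 in the Gfap+ cells and 1.09, 1.24 and 2.14 in the Prom1+ cells. In the Prom1+ cells 5 of the 23 were listed at 0 throughout. Of these genes 20 passed the filter, 17 were separated and higher in Gfap+ cells (85.0%, against 7.28% of all genes), none was separated the other way, and the median difference was 8.33, against −0.04 over all genes. A gene low in Prom1+ cells passed only through Gfap+ cells, and *Mag* and *Mog* were among the genes that named the cluster. This share and those of the further oligodendrocyte, lipid and connexin lists are therefore descriptions and support nothing. *Mbp*, which compacts the inner faces of the myelin membrane, had 13658, 9562, 8119, 19572 and 6464 FPKM in the Gfap+ cells and 0.733, 1.20 and 1.36 in the Prom1+ cells, a difference of 12.32. *Mobp*, another small basic protein of myelin, had 10802, 4959, 5536, 10288 and 7446 FPKM against 0.891, 0.404 and 0.578, a difference of 12.17. For both genes the lowest Gfap+ cell had 4959 FPKM or more and the highest Prom1+ cell 1.36 or less.
*Cldn11*, the tight junction protein of myelin, differed by 11.32 and *Mag*, which faces the axon, by 10.19. *Mag* had 924 to 2573 FPKM in Gfap+ cells and at most 0.741 in Prom1+ cells. *Opalin*, a late oligodendrocyte membrane protein, was an exception among the listed genes, with 1120.5 FPKM in the fourth Gfap+ cell and 0 in the other four. *Omg* was not separated, because the third Prom1+ cell had 127 FPKM and the lowest Gfap+ cell 125. *Cd9*, a tetraspanin of many cell types, had 12.6, 356, 406, 2990.0 and 456 FPKM in Gfap+ and 417, 127 and 296 in Prom1+ cells, which overlap.

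**Figure D1:**
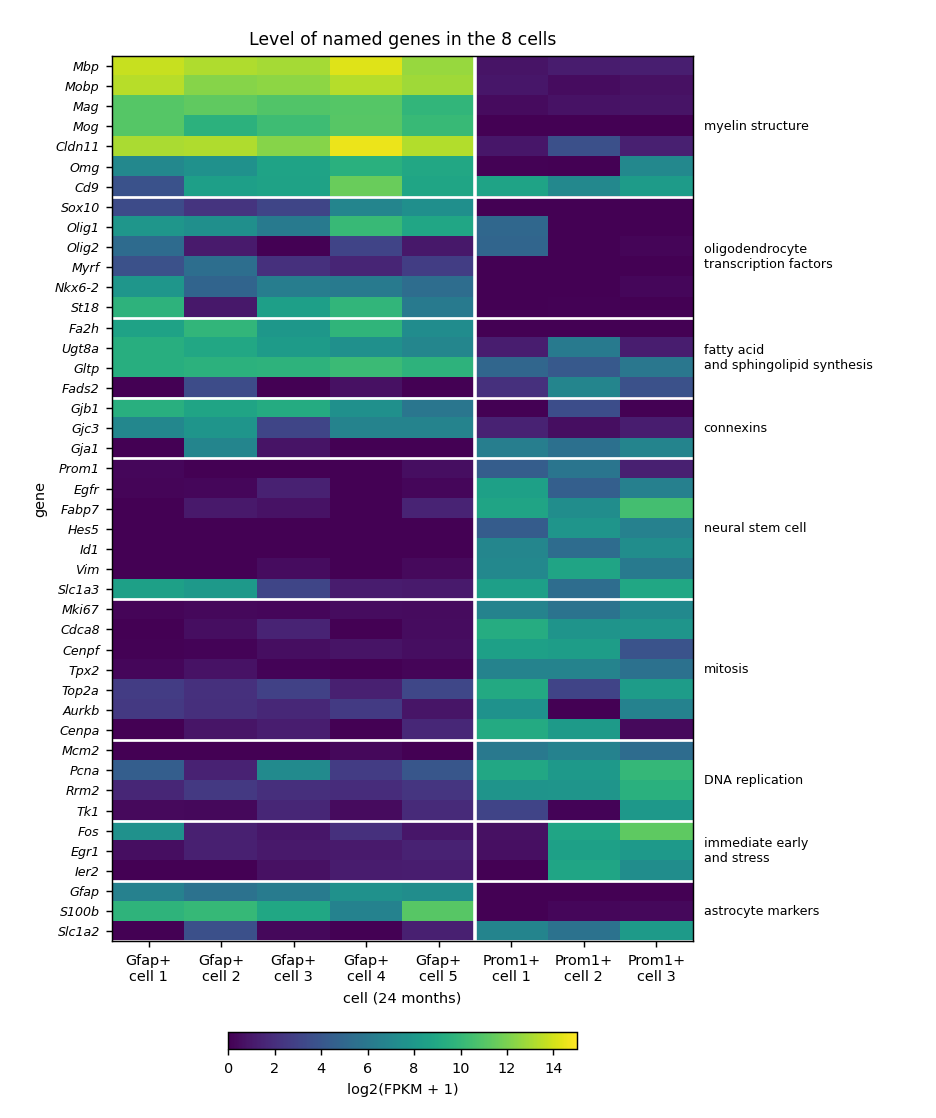
Heat map of log2(FPKM + 1) for 44 named genes (rows, grouped by list) in the 5 Gfap+ and 3 Prom1+ cells of 24 months (columns). Myelin and other oligodendrocyte genes fill the Gfap+ columns, stem cell and division genes fill the Prom1+ columns, and *Fos*, *Egr1* and *Ier2* are above 100 FPKM in the second and the third Prom1+ cells, and *Fos* also in the first Gfap+ cell.

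Enzymes, carriers and stress proteins known from mature oligodendrocytes were on the same side. All 28 listed genes passed the filter, 23 were separated and higher in Gfap+ cells (82.1%, against 7.28% of all genes), and the median difference was 7.14. *Trf*, which carries iron, had 30520.3, 25917, 19897, 45957 and 19487 FPKM in Gfap+ cells and 1.73, 17.3 and 2.99 in Prom1+ cells, a difference of 12.17. *Car2*, a carbonic anhydrase, differed by 11.86, the small heat shock protein gene *Cryab* by 11.77 and the lipocalin gene *Apod* by 11.31. *Klk6*, a secreted protease, had between 205 and 3999.9 FPKM in Gfap+ cells and reached 0.159 in Prom1+ cells. The cytokine gene *Il33* split the Gfap+ cells, with 0.285, 315, 0, 1186 and 895 FPKM, and was listed at 0 in the Prom1+ cells. *Ptgds* was not separated, with 0, 0, 0, 445 and 424 FPKM against 88.0, 0 and 17.1.

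Transcription factors of the lineage had lower levels than the myelin genes, with a mean log2(FPKM + 1) over the list of 4.21 to 5.21 in Gfap+ cells against 8.18 to 9.86. Of 13 factors that passed, out of 14 listed, 6 were separated and higher in Gfap+ cells (46.2%, against 7.28%) and none in Prom1+ cells, with a median difference of 3.10. The count fell to 3 with values under 5 FPKM raised to 5, where *Sox10* and *Myrf* were among those lost. *Sox10*, which switches on myelin genes, had 9.68, 3.73, 7.92, 113 and 178 FPKM in Gfap+ cells and was listed at 0 in the Prom1+ cells. *Myrf*, the myelin regulatory factor, had 12.2, 41.9, 3.31, 1.90 and 5.54 FPKM and was likewise listed at 0 in the Prom1+ cells. *Olig1* had 234, 179, 72.8, 1100.4 and 471 FPKM against 31.1, 0 and 0, a difference of 6.45. These 3 factors were in every Gfap+ cell, and 1 Prom1+ cell also held *Olig1*.
*Olig2*, which acts in precursors and in neural progenitors, overlapped, with 37.5, 1.12, 0, 7.40 and 0.991 FPKM in Gfap+ and 28.3, 0 and 0.136 in Prom1+ cells. *Sox8* overlapped too, with 58.8, 383, 291, 416 and 52.4 FPKM against 92.1, 76.1 and 30.5. *Nkx6-2* had 27.6 to 234 FPKM in Gfap+ cells and at most 0.179 in Prom1+ cells, a difference of 6.05.
Markers of oligodendrocyte precursors were mostly listed at 0 or low in both subpopulations, and 4 of the 13 in the table passed the filter. *Pdgfra*, the growth factor receptor of precursors, was listed at 0 in all 8 cells, *Cspg4* was at most 0.0848 FPKM and *Gpr17* at most 1.71. The 2 separated members, *Enpp6* and *Bcas1*, are known from newly formed rather than dividing oligodendroglia. *Enpp6* had 254, 443, 44.0, 65.2 and 361 FPKM in Gfap+ cells and was listed at 0 in the Prom1+ cells.

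Lipid synthesis and cell coupling were described next, because myelin is rich in cholesterol and galactolipids and oligodendrocytes are coupled by connexins. Of 25 measured genes of fatty acid and sphingolipid synthesis, 9 were separated and higher in Gfap+ cells (36.0%, against 7.28%) and none in Prom1+ cells, with a median difference of 2.97. They included the 2-hydroxylase gene *Fa2h*, with 403, 932, 246, 892 and 155 FPKM against 0 in every Prom1+ cell. *Ugt8a*, the galactosyltransferase that makes galactocerebroside, had 679, 516, 302, 187 and 117 FPKM against 1.30, 72.0 and 1.26, a difference of 5.36. The ceramide synthase gene *Cers2* differed by 4.57 and the glycolipid transfer protein gene *Gltp* by 4.71. The fatty acid synthase gene *Fasn* overlapped, with 0.0709 to 309.9 FPKM in Gfap+ and 3.36 to 197 in Prom1+ cells, and *Fads2* had a difference of −3.38 without separation.
In cholesterol synthesis 1 of 19 measured genes was separated (5.26%, against 7.28% of all genes), *Fdps*, which makes farnesyl diphosphate, with 308, 43.6, 191, 272 and 105 FPKM against 0, 6.11 and 35.8. It was no longer separated with each cell scaled to the same total (TPM), with or without the mitochondrial genes. The count was 2 or 3 when the first, the second or the fourth Gfap+ cell, or the first or the third Prom1+ cell, was left out. The median difference of that list was 0.76. Among the connexins, the oligodendrocyte genes *Gjb1* and *Gjc3* were separated and higher in Gfap+ cells. *Gjb1* had 719, 425, 607, 186 and 58.7 FPKM against 0, 10.8 and 0. *Gja1*, the connexin of astrocytes and stem cells, had 84.4, 45.8 and 107 FPKM in the Prom1+ cells and 0, 113, 0.699, 0 and 0 in the Gfap+ cells, so that 1 Gfap+ cell overlapped.

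**Figure D2:**
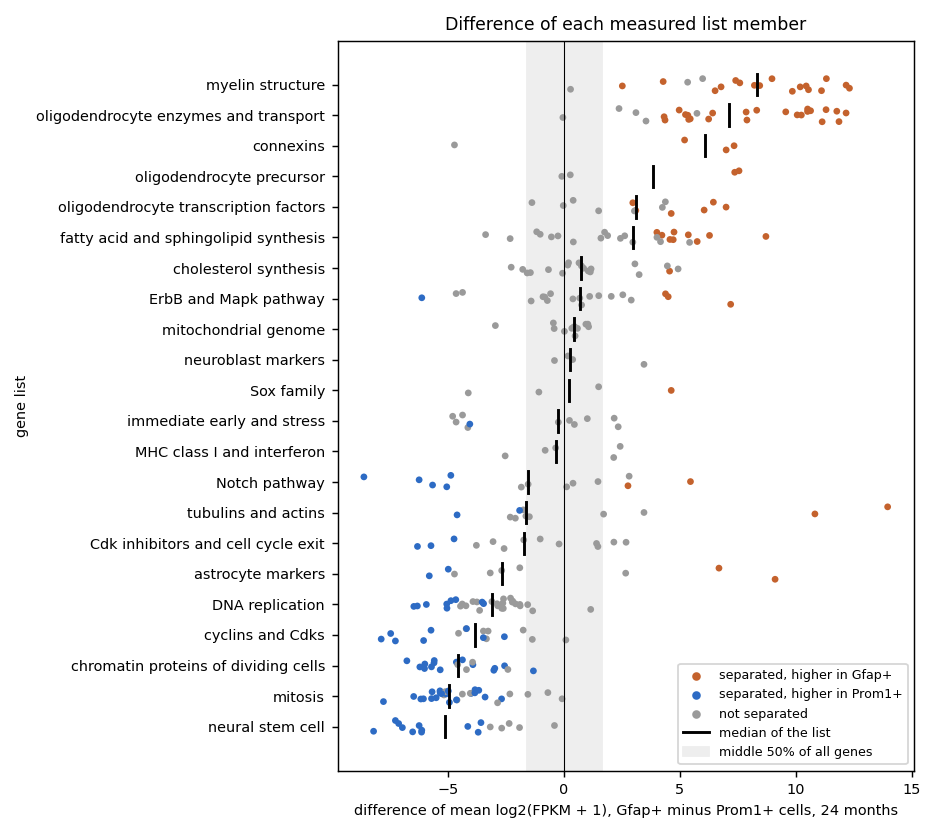
Difference of mean log2(FPKM + 1), Gfap+ minus Prom1+ cells at 24 months (x axis), for each measured member of 22 gene lists (y axis), with the list median as a black bar. The medians run from −5.14 for the neural stem cell list to 8.33 for the myelin list, and the grey band holds the middle 50% of all 7579 genes.

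Genes of activated neural stem cells were on the side of the Prom1+ cells. The mean log2(FPKM + 1) over all 25 listed genes was 4.54, 3.68 and 4.41 in the Prom1+ cells and 0.58, 1.55, 0.61, 0.25 and 0.67 in the Gfap+ cells. Of 16 that passed, 11 were separated and higher in Prom1+ cells (68.8%, against 6.73% of all genes), none in Gfap+ cells, with a median difference of −5.14. *Prom1* itself is 1 of the 11. A gene low in Gfap+ cells passed only where all 3 Prom1+ cells were above 1 FPKM, so the share among passing genes is a description and supports nothing. With 1 Prom1+ cell left out such a gene cannot reach 3 cells, and the count was 5, 6 and 5 without the first, the second and the third. *Fabp7*, the fatty acid-binding protein of radial glia, had 425, 165 and 1445 FPKM in Prom1+ cells and 0, 1.04, 0.676, 0 and 1.84 in Gfap+ cells, a difference of −8.21. *Id1*, which holds back differentiation, had 118, 38.4 and 166 FPKM and was listed at 0 in the Gfap+ cells. All 3 Prom1+ cells carried these genes and no Gfap+ cell reached 2 FPKM of either.
*Vim*, an intermediate filament gene, differed by −7.13 and *Msi1*, an RNA-binding protein of progenitors, by −6.97. *Slc1a3*, a glutamate transporter of stem cells and astrocytes, overlapped, with 375, 279, 7.81, 1.23 and 1.13 FPKM in Gfap+ and 348, 40.8 and 494 in Prom1+ cells. *Sox2* and *Sox9* did not pass the filter, with 26.7, 0.755 and 4.81 FPKM and 56.3, 0.200 and 167 FPKM in the Prom1+ cells and less than 1 in every Gfap+ cell. *Nes*, the nestin gene, was listed at 0 in all 8 cells.
A further 7 genes not annotated as protein-coding, mostly small RNAs, had larger differences toward Prom1+ cells than any protein-coding gene, down to −12.50, and were not followed. Among the protein-coding genes with the largest differences were also *Mt2*, *Lhx2*, *Pdpn*, *Marcks* and *Kcne1l*. *Mt2*, a metal-binding metallothionein, led them with 1879, 716 and 1467 FPKM against 0, 1.77, 2.30, 2.24 and 0, a difference of −9.32. *Lhx2*, a homeobox factor of neural progenitors, had 304, 97.8 and 294 FPKM against at most 0.473, a difference of −7.49. *Pdpn*, a membrane glycoprotein, had 196, 132 and 268 FPKM against at most 0.387 and was listed at 0 in all 4 Dlx2+/Dcx+ cells of 24 months.

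Genes of Notch signalling, which keeps stem cells undifferentiated, had a higher mean level in Prom1+ cells, with separated members on both sides. The mean log2(FPKM + 1) over all 29 genes was 2.53, 2.71 and 2.53 in the Prom1+ cells and 0.64 to 1.86 in the Gfap+ cells. Of 13 measured genes, 5 were separated and higher in Prom1+ cells (38.5%, against 6.73% of all genes) and 2 in Gfap+ cells (15.4%, against 7.28%). As for the stem cell list, a gene low in Gfap+ cells passed only where all 3 Prom1+ cells were above 1 FPKM. These shares are therefore descriptions and support nothing. The 5 became 3, 2 and 2 without the first, the second and the third Prom1+ cell. The receptor gene *Notch1* had 25.9, 219.9 and 52.9 FPKM in Prom1+ cells and 0, 0, 0, 3.42 and 0 in Gfap+ cells, and the ligand gene *Jag1* 10.6, 74.9 and 46.5 against at most 0.123. Of the Hes family, *Hes5*, a classic Notch target, had 19.3, 227 and 93.9 FPKM and was listed at 0 in every Gfap+ cell. *Hes6* had 519, 1073 and 972 FPKM against at most 3.25, a difference of −8.63. On the other side *Adam10*, a protease that cleaves Notch and many other proteins, had 498, 291, 56.5, 180.2 and 68.5 FPKM in Gfap+ cells and 14.9, 34.9 and 22.1 in Prom1+ cells. *Notch2* and the effector gene *Rbpj* overlapped.
Downstream of *Egfr*, 19 genes of ErbB and Mapk signalling were measured, and *Egfr* was the member separated toward Prom1+ cells (5.26%, against 6.73% of all genes). The kinase genes *Mapk3* and *Map2k2* and the transcription factor gene *Etv1* were separated and higher in Gfap+ cells (15.8%, against 7.28%), so that both shares are near the background. *Etv1* had 705, 758, 476, 147 and 607 FPKM against 25.3, 0.0770 and 0.179, a difference of 7.19. *Mapk3* had as little as 1.32 FPKM in 1 Gfap+ cell and at most 1.21 in Prom1+ cells, a margin smaller than the worth of 1 fragment at 1 kb. Scaled as TPM, with or without the mitochondrial genes, *Mapk3* and *Map2k2* were no longer separated and *Etv1* was. At 1 month the differences of *Mapk3* and *Map2k2* were −1.12 and −3.83, opposite in sign. The feedback inhibitor gene *Spry2* overlapped at 159 to 961 FPKM in Gfap+ and 427 to 656 in Prom1+ cells.

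Genes of cell division were the other large group on the Prom1+ side. The mean log2(FPKM + 1) over all 44 listed mitosis genes was 6.16, 3.89 and 4.26 in the Prom1+ cells and 0.78 to 1.10 in the Gfap+ cells. Of 31 that passed, 21 were separated and higher in Prom1+ cells (67.7%, against 6.73% of all genes) and none in Gfap+ cells, with a median difference of −4.94. As for the stem cell list, a gene low in Gfap+ cells passed only where all 3 Prom1+ cells were above 1 FPKM, so this share and those of the further division lists are descriptions and support nothing. *Mki67*, the proliferation antigen, had 103, 52.4 and 135 FPKM in Prom1+ cells and 0.135, 0.253, 0.205, 0.399 and 0.336 in Gfap+ cells, a difference of −6.17. *Cdca8*, a subunit of the chromosomal passenger complex, had 612, 219 and 227 FPKM against 0, 0.449, 1.83, 0 and 0.399, a difference of −7.79. *Cenpf*, a kinetochore protein, had 361, 322 and 13.6 FPKM against at most 0.720, a difference of −6.48. In none of the 3 did a Gfap+ cell exceed 2 FPKM. *Bub3* and *Racgap1* were not separated, with 0.674 to 436 and 82.1 to 116 FPKM in Gfap+ cells and 49.5 to 134 and 43.4 to 324 in Prom1+ cells.
Among cyclins and their kinases 8 of 16 measured genes were separated and higher in Prom1+ cells (against 6.73% of all genes). *Ccnb2* had 527, 387 and 60.3 FPKM against at most 1.40 and *Cks2*, a small subunit of cyclin-dependent kinases, 552, 344 and 177 against at most 1.28. *Cdk1*, the mitotic kinase, had 57.1, 359.6 and 6.50 FPKM against 0.634, 3.58, 3.82, 2.90 and 0.528, a difference of −4.20. *Cdk6* had 158, 381 and 352 FPKM against at most 1.34, whereas *Cdk4* was not separated, with 676, 999, 5.49, 88.9 and 38.8 FPKM in the Gfap+ cells.
Of 31 measured replication genes, 9 were separated (29.0%, against 6.73% of all genes), all toward Prom1+ cells, and the median difference was −3.11. *Mcm2*, part of the helicase that opens DNA for copying, had 66.1, 99.0 and 38.0 FPKM against 0, 0, 0, 0.249 and 0, and *Pcna*, the sliding clamp, 511, 266 and 1007 against 21.6, 1.72, 142, 5.40 and 15.1. *Rrm2*, which makes deoxynucleotides, differed by −6.32. *Tk1* was not separated, with 7.60, 0.115 and 259 FPKM in the Prom1+ cells, and *Prim1* lay higher in Gfap+ cells by 1.15 with overlap.
Of 19 measured chromatin proteins of dividing cells, 15 were separated and higher in Prom1+ cells (78.9%, against 6.73%), with a median difference of −4.58. *Hmgb2* had 349, 446 and 495 FPKM against 1.34, 2.51, 11.1, 2.53 and 1.56, and *Uhrf1*, which keeps DNA methylation through replication, 39.7, 72.0 and 78.7 against at most 0.520. *Hmgn2*, whose many processed copies make its count uncertain, was also high in Gfap+ cells, at 404 to 956 FPKM against 1870.0 to 5416.
Of 13 measured genes that restrain division, 3 were separated, all higher in Prom1+ cells (23.1%, against 6.73% of all genes), *Cdkn2c*, *Btg2* and *Gadd45g*. The median difference was −1.73, and the count was 5 without the first Gfap+ cell. *Btg2* had 61.1, 1072 and 695 FPKM against 8.91, 0.737, 55.9, 0.310 and 0.436. The inhibitor gene *Cdkn1b* was high in all 8 cells, with 97.5 to 350.3 FPKM in Gfap+ and 314 to 590.3 in Prom1+ cells, which overlap, and *Cdkn1a* overlapped as well.

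The promoters of mitosis genes are shown because 21 of the genes were separated toward Prom1+ cells and many of the windows hold the same short motifs. RefSeq promoter windows of GRCm38.p6, 250 bases before to 50 after a start, were found for 37 of the 44 genes, with 40 windows. The letters TTTGAA, on either strand, stood in 30 of 40 windows (75.0%) and in 17.9% of all 32851 windows. CCAAT, on either strand, stood in 29 of 40 (72.5%) and in 37.4% of all windows, and both together in 27 of 40 (67.5%) against 6.95%. TTTGAA is the core of the cell cycle homology element and CCAAT the letters bound by NF-Y. A match is a description of the letters and not a test of a factor. The 3 separated mitosis genes with the largest differences among those holding both motifs follow, each on the minus strand, with both motifs in capitals. The reverse complements, TTCAAA and ATTGG, are also in capitals, and neighbouring matches can run together.
Cdca8 (chr4:124936868-124937167): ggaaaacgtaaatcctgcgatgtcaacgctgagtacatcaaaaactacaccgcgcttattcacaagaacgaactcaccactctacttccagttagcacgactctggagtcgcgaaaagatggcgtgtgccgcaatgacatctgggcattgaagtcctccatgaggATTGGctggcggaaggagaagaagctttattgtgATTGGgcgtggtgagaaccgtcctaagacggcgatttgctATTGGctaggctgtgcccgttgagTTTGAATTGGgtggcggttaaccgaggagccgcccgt
Cenpf (chr1:189688037-189688336): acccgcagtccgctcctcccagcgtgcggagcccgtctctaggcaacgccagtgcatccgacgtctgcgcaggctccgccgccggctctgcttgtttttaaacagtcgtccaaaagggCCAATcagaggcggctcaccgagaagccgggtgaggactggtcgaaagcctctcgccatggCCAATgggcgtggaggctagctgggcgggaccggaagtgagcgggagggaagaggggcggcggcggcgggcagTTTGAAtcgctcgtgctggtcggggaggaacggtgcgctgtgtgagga
Mki67 (chr7:135716330-135716629): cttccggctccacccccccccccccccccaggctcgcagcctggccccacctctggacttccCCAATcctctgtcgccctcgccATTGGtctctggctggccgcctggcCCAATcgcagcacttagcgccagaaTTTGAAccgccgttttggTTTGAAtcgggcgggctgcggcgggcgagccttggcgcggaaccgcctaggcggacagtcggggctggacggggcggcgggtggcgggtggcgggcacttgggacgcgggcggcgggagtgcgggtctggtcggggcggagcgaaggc
For the myelin genes the search was for ACAAAG, a core bound by Sox proteins, on either strand. It stood in 6 of 21 windows (28.6%) of the 17 genes with one, and in 18.7% of all windows. With *Mbp* left out of the choice, the 2 separated genes with the largest differences among those holding it were *Mobp*, on the plus strand, and *Mag*, on the minus strand, shown with ACAAAG and its reverse complement CTTTGT in capitals.
Mobp (chr9:120149492-120149791): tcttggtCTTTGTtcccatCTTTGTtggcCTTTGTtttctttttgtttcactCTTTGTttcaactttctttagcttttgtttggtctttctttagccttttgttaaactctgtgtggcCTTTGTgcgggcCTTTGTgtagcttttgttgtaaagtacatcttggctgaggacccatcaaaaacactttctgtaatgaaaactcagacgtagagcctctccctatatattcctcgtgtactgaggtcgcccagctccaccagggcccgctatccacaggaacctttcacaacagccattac
Mag (chr7:30914814-30915113): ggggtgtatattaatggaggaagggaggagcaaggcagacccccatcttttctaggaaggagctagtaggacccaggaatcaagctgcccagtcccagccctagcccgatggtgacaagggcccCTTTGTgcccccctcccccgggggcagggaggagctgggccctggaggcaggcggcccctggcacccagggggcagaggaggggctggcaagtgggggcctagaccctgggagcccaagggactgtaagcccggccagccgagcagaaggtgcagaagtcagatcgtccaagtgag

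The 3 Prom1+ cells differed among themselves in division and immediate early genes. The second cell had little of several mitosis genes that the others held, with 0 FPKM of *Aurkb* against 202 and 100.1, 7.37 of *Top2a* against 551 and 306, and 0.273 of *Spc25* against 360.4 and 131. The third cell had little of others, with 0.324 FPKM of *Cenpa* against 580.0 and 292, and 0.932 of *Ccnb1* against 243 and 70.7. The third cell was also highest for *Tk1* at 259 FPKM and *Lig1* at 590.1, against at most 7.60 and 2.04 in the other two.
*Fos* had 0.597, 454 and 2523 FPKM in the Prom1+ cells and 194, 1.46, 0.852, 3.31 and 0.872 in the Gfap+ cells. *Egr1* had 0.552, 372 and 263 FPKM against at most 1.76, and *Ier2* 0, 452 and 165 against at most 1.26. These immediate early genes, which respond within minutes to growth factors and to tissue handling, were thus near 0 in the first Prom1+ cell and high in the other two. Of the 11 measured genes of that list 1 was separated (9.09%, near the 6.73% of all genes), *Dnajb1*, a co-chaperone gene, with 92.5, 2.16 and 29.3 FPKM against 0, 0, 0.214, 0 and 1.46. Without the first Prom1+ cell 5 genes of the list were separated, and with a floor of 5 FPKM none was. The part of cell dissociation in these values was not tested.

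Of 12 measured protein genes of the mitochondrial genome none was separated, against 7.28% and 6.73% of all genes toward either side, and the median difference was 0.44. Without the fifth Gfap+ cell, or without the first Prom1+ cell, 2 of them were. Of 5 measured genes of MHC class I and interferon response none was separated, and in groups this small a count of 0 is near the background. Among them was *B2m*, with 0, 1286, 1267, 1240.1 and 782 FPKM in Gfap+ and 534, 171 and 0.464 in Prom1+ cells. Tubulins were divided by member, with *Tubb4a*, the tubulin of oligodendrocytes, at 8661, 5124, 2657, 1586 and 3148 FPKM against 0.842, 0.776 and 1.35. *Tubb5*, the tubulin of dividing cells, had 225, 34.8, 49.7, 19.7 and 18.4 FPKM against 1755, 427 and 1643, and fragments of these close relatives may have been shared between copies.

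Cytosolic ribosomal proteins, a group added after its values were seen, had 16 of 76 measured genes separated toward Prom1+ cells (21.1%, against 6.73% of all genes) and none toward Gfap+ cells, with a median difference of −1.51.

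The same differences were taken in the 2 Gfap+ and 3 Prom1+ cells of 1 month, which share no cell with those of 24 months but were clustered together with them. Likeness between the ages is therefore not independent support for either. Depth differed more here, since 1 fragment of a 1 kb transcript was worth 2.23 and 0.484 FPKM in the Gfap+ and 0.161 to 0.280 in the Prom1+ cells. The first of these Gfap+ cells stood apart, with 4398 genes above 1 FPKM against 5491 in the other. Across the 7579 genes the differences at both ages correlated with r = 0.568, a description over genes that share each age's cells. Of the 552 genes higher in Gfap+ cells at 24 months, 89.1% had the same sign at 1 month, against 41.5% of all genes, and 330 were separated the same way (59.8%, against 13.0% of all genes). Of the 510 genes higher in Prom1+ cells, 87.6% had the same sign, against 56.2% of all genes, and 239 were separated the same way (46.9%, against 17.5%). With 2 against 3 cells separation is easier to reach at 1 month, so the shares are read only against those of all genes.
Of the 10 protein-coding genes with the largest difference toward Gfap+ cells all were separated the same way at 1 month, *Actb* among them, which was listed at 0 in the Prom1+ cells of both ages and had 10899.8 to 29739.5 FPKM in the Dlx2+/Dcx+ cells of 24 months. Of the 10 protein-coding genes toward Prom1+ cells 7 were. The 3 that were not were *Hes6*, *Mt2* and *Pdpn*, with 358 and 5.64 FPKM of *Hes6* in the Gfap+ cells of 1 month. The median difference of the passing members at 1 month was 9.44 for the myelin list, −4.93 for the neural stem cell list and −5.00 for the mitosis list. All 17 separated myelin genes and 18 of the 21 separated mitosis genes were separated the same way at both ages. So were 20 of 23 oligodendrocyte enzymes and carriers, 5 of 6 lineage transcription factors, 8 of 9 genes of fatty acid and sphingolipid synthesis, 9 of 11 stem cell genes, 7 of 8 cyclins and kinases and 12 of 15 chromatin proteins. The same held for 5 of 9 replication genes, and for 2 of 5 Notch genes toward Prom1+ and 1 of 2 toward Gfap+ cells. It held for none of the 3 genes that restrain division and none of the 3 ErbB and Mapk genes higher in Gfap+ cells. Of all genes separated at 24 months the shares were 46.9% toward Prom1+ and 59.8% toward Gfap+ cells. Counts as small as these last ones are not read against those shares. *Apod* had 6032 to 13874 FPKM in Gfap+ cells of 24 months and 1144 and 4415 at 1 month, and its difference from Prom1+ cells was 11.31 and 8.38.

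**Figure D3:**
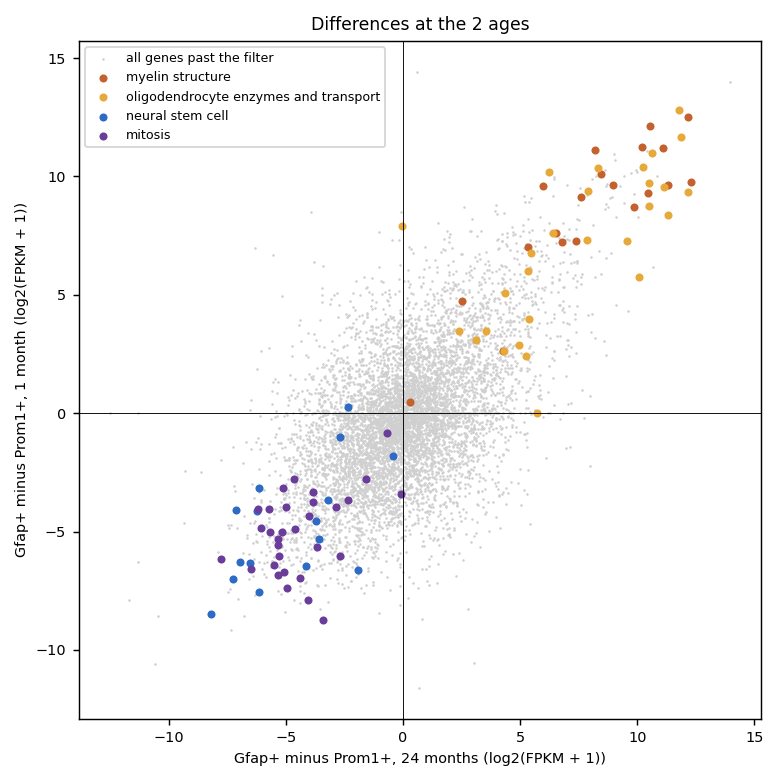
Difference of mean log2(FPKM + 1), Gfap+ minus Prom1+ cells, at 24 months (x axis, 5 against 3 cells) and at 1 month (y axis, 2 against 3 cells) for 7579 genes, with 4 lists in colour. The 17 separated myelin genes lie in the upper right and 18 of the 21 separated mitosis genes are separated toward Prom1+ cells at both ages, and r over all genes is 0.568.

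Levels in the 4 Dlx2+/Dcx+ cells of 24 months, named for the neuroblast genes *Dlx2* and *Dcx*, placed both gene groups beside a further cell type. Of the 510 genes higher in Prom1+ cells, 172 (33.7%) were above 1 FPKM in all 4 of them and 62 (12.2%) in none, against 22.7% and 18.6% of all genes. Of the 552 genes higher in Gfap+ cells, 96 (17.4%) were above 1 FPKM in all 4 and 179 (32.4%) in none. Replication genes had a mean log2(FPKM + 1) of 4.81 to 5.77 in these cells and 3.08 to 5.88 in the Prom1+ cells, which overlap. Mitosis genes ranged from 1.30 to 5.45 there and neural stem cell genes from 2.03 to 2.67, the latter below all 3 Prom1+ cells. *Hes5* was listed at 0 in all 4, and *Marcks*, a membrane-bound actin regulator, had 304 to 609.5 FPKM in them, 139 to 807 in Prom1+ cells and at most 1.78 in Gfap+ cells. Myelin genes were low in them, at 1.24 to 1.85.

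**Figure D4:**
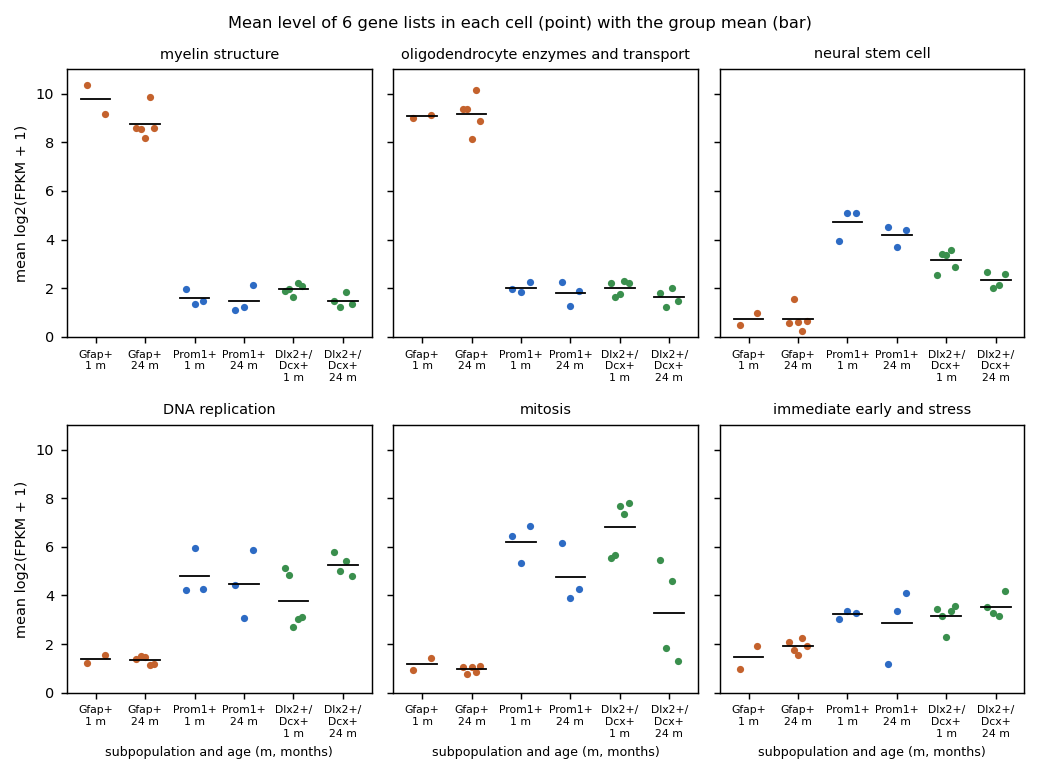
Mean log2(FPKM + 1) over all listed members of 6 gene lists (y axis) in each of the 22 cells (points), by subpopulation and age (x axis), with the group mean as a bar. At 24 months the Gfap+ cells lie between 8.18 and 9.86 for the myelin list, the Prom1+ cells between 1.09 and 2.14, and the first Prom1+ cell is the lowest cell of its group for immediate early genes, at 1.19.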

How the data were processed

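Single-cell cDNA was made with Smart-seq2, and the authors aligned reads to GRCm38 with HISAT2 and estimated expression with StringTie. The submitters' processing notes also name featureCounts, and versions and the annotation are not given in the sources used here. The deposited values are FPKM per gene and cell, and no counts were used. The positions listed in the table overlapped the GRCm38 gene of the same identifier for 12.8% of matched genes and were not used. Identifiers were matched to GENCODE, which held 95.7% of the passing genes, and coordinates are from that annotation.

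Differences are of mean log2(FPKM + 1) with a pseudocount of 1, computed with Python 3.11.15, numpy 2.4.6 and pandas 2.3.3. Genes needed FPKM above 1 in 3 or more of the 8 cells. No label names an animal, and the subpopulations are the authors' clusters of the same cells, so each was 1 sample, no test was made, and n counts cells. The calling script was tested on simulated data. Depth was estimated from the 5% quantile of low values of genes with 1 transcript of at least 300.0 bases, with between 38.9% and 49.2% of low values within 0.1 of a whole multiple, so it is rough, and reads per cell listed by the study were not used here. It covers fragments and not molecules, since no molecular identifiers were used.

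The members and gene lists were chosen with earlier results of these data known. Named genes are the 4 markers, list members (those with the largest differences, those that define a role and those not separated) and the 10 protein genes with the largest difference in each direction. Alternatives were another pseudocount, other filters, other scalings, the median for the mean, leaving out each cell, and a floor of 5 FPKM that was chosen after seeing the data. The tissue samples were not used here, and some genes are not reported here.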

Additional observations from a re-analysis of the deposited data

Results flagged for a closer look

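Values of 50 genes or lists were examined in the same 5 Gfap+ cells. In 6 of them 1 cell lay far from the others, with a gap above 0.71 of the whole range. A chance rate of about 1 in 20 cannot be applied to this count. The 50 share their cells, many of the genes were chosen from these data, and some values lie near 0. For single genes the gap was 0.789 of the range for *Egfr*, where the third Gfap+ cell had 1.58 FPKM, 0.871 for *Cryab*, where the third cell had 7975 FPKM against 16816 or more, and 1.000 for *Kcne1l*, where the third cell had 0.303 FPKM and the others 0. For mean list levels it was 0.747 for the myelin list and 0.735 for the connexins, and 0.859 for the ependymal markers.

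For 12 genes the subpopulations were separated in opposite directions at 24 months and 1 month, and this difference between ages was not tested. They are 6 of the 552 and 6 of the 510 separated genes, and values are given for 11. Of all genes, 17.5% were separated toward Prom1+ and 13.0% toward Gfap+ cells at 1 month, so these reversals were rarer than that background. The 1 month side rests on 2 Gfap+ cells, and in the first 1 fragment of a 1 kb transcript was worth 2.23 FPKM. Given as the difference of Gfap+ minus Prom1+ cells at 24 months and then at 1 month, *Arfip2* had −5.15 and 4.97, *Pgap2* −5.53 and 6.68, and *Cntln* −3.83 and 1.46. *Maf1* had −3.22 and 1.38, *Prrc2c* −3.15 and 1.89, and *Slc9a8* −1.92 and 3.38. In the other direction *Dcaf12* had 3.56 and −4.19, *Flywch1* 5.01 and −2.36, and *Pcnp* 1.22 and −2.99. *Txndc9* had 4.15 and −4.83, and *Yipf6* 3.99 and −4.38. At 24 months the fifth Gfap+ cell had 0.171 FPKM of *Dcaf12* and 1.348 of *Flywch1*, against at most 0.094 and 0.909 in Prom1+ cells. Both margins are smaller than the 0.587 FPKM that 1 fragment at 1 kb was worth in that Gfap+ cell. For *Dcaf12* and *Yipf6* both Gfap+ cells of 1 month were listed at 0, and for *Pgap2* and *Cntln* all 5 Gfap+ cells of 24 months, so these values depend on the pseudocount and give no fold.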

How the results depend on the processing

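No paired analysis was possible because no result comes from a test and cell numbers tie no cells together. Of the named genes, 70 were separated toward Gfap+ and 80 toward Prom1+ cells. Under TPM scaling 5 of the 70 were no longer separated (*Cd81*, *Anln*, *Fdps*, *Map2k2* and *Mapk3*), and without the mitochondrial genes *Zeb2* was not either. With quantile normalization 3 of the 70 and 10 of the 80 were not, *Cdk1*, *Aurka* and *Dnmt1* among the 10. With the floor of 5 FPKM 8 of the 70 and 16 of the 80 were not, among them *Sox10*, *Myrf*, *Prom1*, *Nr2e1* and *Cdkn2c*, and with FPKM above 5 in 3 cells 16 of the 80 did not pass, among them *Prom1*, *Nr2e1* and *Cdkn2c*. Leaving out any 1 Prom1+ cell took 26 of the 80 below the filter. The counts of 552 and 510 became 456 and 622 under TPM scaling, 559 and 651 with no filter, and 428 and 366 with values under 5 FPKM raised to 5, and ranged from 637 to 701 and from 476 to 640 when 1 cell was left out. Median differences with a pseudocount of 0.1 were 10.01 (myelin), 9.47 (oligodendrocyte enzymes), −7.26 (neural stem cell), −4.30 (DNA replication) and −6.12 (mitosis). With the floor of 5 FPKM they were 6.72, 5.36, −3.14, −2.02 and −3.32. With no filter they were 7.59 (myelin), −3.58 (neural stem cell) and −3.92 (mitosis), with the median for the mean 9.37 (myelin), 8.17 (enzymes) and −6.24 (neural stem cell), and with FPKM above 5 in 3 cells 7.86 (enzymes) and −6.19 (neural stem cell). Leaving out 1 cell gave 7.72 to 9.28 (myelin), 6.65 to 7.98 (enzymes), −5.56 to −3.42 (neural stem cell), −4.14 to −2.63 (DNA replication) and −5.06 to −3.53 (mitosis). The median of the Notch list ran from −1.89 to 0.43 when 1 cell was left out and reversed without Prom1+ replicate 1 (0.43) or replicate 2 (0.0066), where genes seen in Prom1+ cells alone can no longer reach 3 cells. That of the neuron markers was 2.76 from the 1 of 12 that passed, and −0.036 with no filter, where further markers entered. With 3 Prom1+ cells, values of a few FPKM and listed zeros carry little weight.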

Other observations

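A pair of genes, chosen after their values were seen, was high in the Prom1+ cells of 24 months and low or listed at 0 in those of 1 month. *Dkk3*, a secreted protein of the Dickkopf family, had 40.2, 109.9 and 168 FPKM in the 3 Prom1+ cells of 24 months, was listed at 0 in all 5 Gfap+ cells, and was at most 0.139 in the Prom1+ cells of 1 month. *Lxn*, a carboxypeptidase inhibitor, had 114, 108 and 57.1 FPKM in the same cells of 24 months and was listed at 0 in the Prom1+ cells of 1 month and the Gfap+ cells of 24 months. In the Dlx2+/Dcx+ cells of 24 months *Dkk3* was at most 0.127 FPKM, and *Lxn* had 66.8 in 1 cell and 0 in the others. *Nes* went the other way, with 34.6, 2.44 and 17.6 FPKM in the Prom1+ cells of 1 month and listed at 0 in those of 24 months. As *Actb* shows, a listed 0 cannot be read as absence. Age was not tested, and with 3 cells at each age and no animal named it cannot be told apart from differences between single cells or animals.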
